A study of Homo sapiens with 2 samples.

Results

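Intestinal lineage transcription factors were followed here as a fixed list of 8 genes: CDX1, CDX2, HNF4A, KLF4, KLF5, GATA6, ELF3 and ATOH1. They were looked up by gene symbol among 17687 genes with a named probe set, and 7 of the 8 were found. No named probe set was assigned to HNF4A, so its level was not analysed here. The samples were 2 cultures of DLD-1, an established human colorectal adenocarcinoma line, each hybridised to 1 whole-transcript microarray. The siControl culture received a negative control siRNA and the siYY1 culture an siRNA against the zinc finger transcription factor YY1. Each siRNA was used at 5 nmol/L, and total RNA was isolated after 3 days. The question was how the level of each gene differs between the siControl array and the siYY1 array.

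Transcription factors of this kind set and keep the identity of the gut lining. CDX1 and CDX2 are homeodomain proteins that specify intestinal rather than gastric epithelium, HNF4A is a nuclear receptor of the absorptive cells, and GATA6 is a zinc finger factor of endoderm and crypt epithelium. KLF5 is a Krüppel-like factor of dividing crypt cells, and its relative KLF4 of differentiated and goblet cells. ELF3 is an epithelial ETS factor, and ATOH1 is the basic helix-loop-helix factor that commits progenitors to the secretory lineages under restraint by Notch signalling.

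All values were log2 values after quantile normalization of the pair, and each difference was siYY1 minus siControl, so that 1 unit is 2-fold. The log2 scale was inferred from the range of the deposited values. Each group was 1 array, so no difference has a replicate error or a test, and the differences compare these arrays rather than the conditions. Genes were called compared when they were protein-coding and reached 7.50 on the brighter array, the median of that value over all named genes; 8747 genes did. Their differences had a median of -0.01 and a standard deviation of 0.75. The number of arrays limits the precision. YY1 itself had no named probe set, so the knockdown was not checked and the groups rest on the labels.

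Promoter sequence is shown for 3 lineage factors, because YY1 acts at promoters and these genes differed in direction or in the letters they hold. The sequences are the 250 bases before the RefSeq start site (GRCh38.p14), 5′ to 3′ on the strand of the gene. CDX2 lies at chr13:27969316-27969565 on the minus strand, GATA6 at chr18:22169339-22169588 on the plus strand and KLF4 at chr9:107489770-107490019 on the minus strand. Capitals mark the core of the YY1 motif (GCCAT) in KLF4, the core of the CDX motif (TTTAT) in CDX2 and GATA6, and the GATA motif (AGATAA) in CDX2, each on either strand.
CDX2: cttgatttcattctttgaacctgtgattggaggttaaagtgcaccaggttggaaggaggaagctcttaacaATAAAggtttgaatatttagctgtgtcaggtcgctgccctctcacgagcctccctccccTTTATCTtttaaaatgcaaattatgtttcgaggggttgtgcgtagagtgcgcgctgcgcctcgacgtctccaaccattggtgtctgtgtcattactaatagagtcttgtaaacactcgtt
GATA6: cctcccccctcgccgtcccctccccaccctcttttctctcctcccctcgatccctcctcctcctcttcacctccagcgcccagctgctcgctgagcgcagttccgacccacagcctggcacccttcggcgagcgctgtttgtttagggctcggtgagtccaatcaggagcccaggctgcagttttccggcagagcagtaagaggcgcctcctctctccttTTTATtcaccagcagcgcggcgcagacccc
KLF4: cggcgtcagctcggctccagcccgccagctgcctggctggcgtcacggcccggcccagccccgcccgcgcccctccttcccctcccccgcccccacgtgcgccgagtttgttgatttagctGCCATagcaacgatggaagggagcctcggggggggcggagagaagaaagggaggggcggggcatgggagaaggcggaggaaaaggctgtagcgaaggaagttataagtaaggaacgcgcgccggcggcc

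Of the 8 factors, 7 had a RefSeq promoter window of 300 bases, the 250 above plus 50 after the start, and both HNF4A and KLF5 had more than 1, for 9 windows in all. The YY1 core GCCAT, or its reverse complement ATGGC, was in 2 of the 9 windows, 1 of KLF4 and 1 of HNF4A, against 37.8% of 35116 windows of all genes. In KLF4 the match began 129 bases before the start. The longer YY1 form AANATGGC, or its reverse complement GCCATNTT, was in 0 of the 9 windows and in 6.58% of all windows; it contains the core. The windows of CDX2, GATA6, KLF5, ELF3 and ATOH1 therefore held neither form. The CDX core TTTAT, or ATAAA, was in 4 of the 9 windows, those of CDX2, GATA6 and ELF3 and 1 of KLF5, against 34.9% of all windows. The GATA motif AGATAA, or TTATCT, was in 2 of the 9 windows, that of CDX2 and 1 of HNF4A, against 10.3% of all windows. In CDX2 it began 119 bases before the start and overlapped a CDX core that began at 120. These matches describe letters in the window only.

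None of the 7 factors differed by 2-fold in either direction, and they did not share a direction. Among the 3 bright enough to be compared, CDX2 was lower on the siYY1 array, and GATA6 and KLF5 were higher. The other 4, CDX1, KLF4, ELF3 and ATOH1, were below the brightness minimum on both arrays. Of the 8747 genes compared, 17.3% passed 2-fold, so that 0 of 3 factors stands beside a background at which most genes also stayed within 2-fold. Over all named protein-coding genes, dim ones included, 10.3% passed 2-fold, against 0 of 7 factors. At 1.5-fold CDX2 and GATA6 passed, 2 of 3 beside 41.2% of the genes compared, but GATA6 did not in the deposited values, at 0.57, or after centring on medians, at 0.49. The median of the 3 was 0.25, against -0.01 over all genes compared. Fewer cells of a type and less RNA per cell cannot be told apart in RNA from whole cultures.

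**Figure D1:**
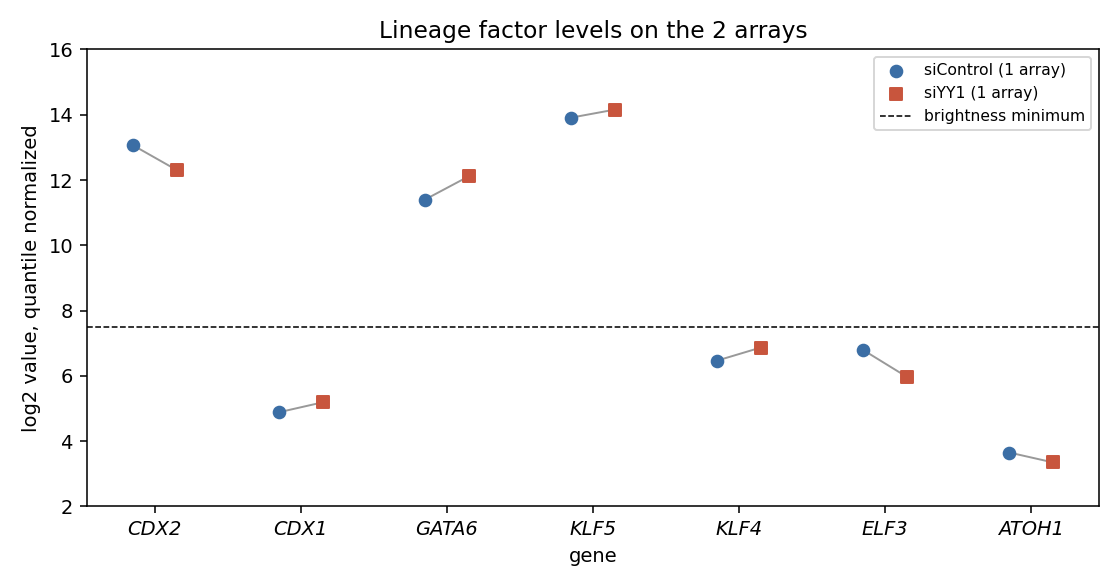
Log2 value (vertical axis, quantile normalized) of the 7 lineage factors with a named probe set, with circles for the siControl array and squares for the siYY1 array, 1 array each. CDX2, GATA6 and KLF5 lie above the dashed brightness minimum of 7.50 on both arrays, and CDX1, KLF4, ELF3 and ATOH1 lie below it on both. Heights of different genes come from different probes and are not compared.

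CDX2 was at 13.07 on the siControl array and at 12.31 on the siYY1 array, a difference of -0.76. The siYY1 value was thus 1.69-fold lower. Of the genes compared, 1388 (15.9%) had a difference as low or lower, so CDX2 was on the lower side of the distribution but not at its edge. Among genes of like brightness, 1 of 10 equal parts, the standard deviation of the differences was 0.61, so this value was larger in size than 1 such spread. The difference came closest to 2-fold, at -0.97, when the arrays were only centred on their medians.

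GATA6 measured 11.40 in siControl against 12.11 in siYY1, a difference of 0.71 in the other direction, or 1.64-fold higher. A difference as high or higher was found in 1294 of the genes compared (14.8%). The standard deviation among genes of like brightness was 0.75, so this value was smaller than 1 such spread. GATA6-AS1, a non-coding gene named for GATA6, is annotated in RefSeq, and whether the probes separate the strands was not tested.

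KLF5 measured 13.91 in siControl against 14.16 in siYY1, a difference of 0.25, or 1.19-fold higher. Of the genes compared, 35.6% were as high or higher. The values of the factor on both arrays were thus close, and with the arrays centred on their medians the difference was 0.02. KLF5 was the compared factor with the smallest difference under quantile normalization.

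**Figure D2:**
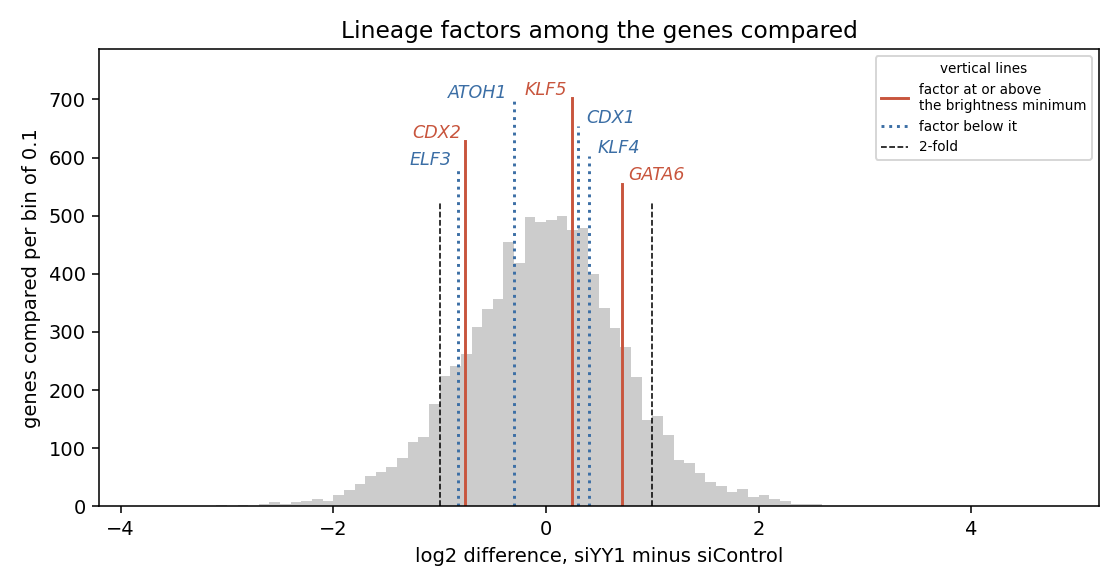
Histogram of the log2 difference, siYY1 minus siControl, over the 8747 genes compared (vertical axis, genes per bin of 0.1), with a vertical line at the difference of each lineage factor. Solid lines mark the 3 factors at or above the brightness minimum and dotted lines the 4 below it; all 7 lie between the dashed 2-fold lines, from -0.83 for ELF3 to 0.71 for GATA6.

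The 4 dim factors were set beside dim genes that belong to other tissues. ELF3 measured 6.79 in siControl against 5.97 in siYY1, a difference of -0.83, which is the largest in size of the 7; RefSeq lists an antisense gene, ELF3-AS1, whose reading by the probes was not tested. KLF4 was at 6.47 and 6.87, a difference of 0.40. RefSeq also lists a KLF4 pseudogene, KLF4P1, whose signal could be shared.

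CDX1 measured 4.88 in siControl against 5.19 in siYY1, a difference of 0.30, so the paralogs CDX1 and CDX2 lay on opposite sides of 0. ATOH1 was at 3.65 and 3.35, a difference of -0.30. As a gauge of such dim values, 37 dim genes of fibroblasts, endothelium, leukocytes and gastric or squamous epithelium had differences from -0.66 for DSG3 to 1.24 for MUC6, with a standard deviation of 0.47. On the brighter array of each gene they ran from 3.62 to 7.49. The upper end was set by the brightness minimum that also defines the 4 dim factors. That these factors lie below it was therefore fixed beforehand and does not liken them to genes of other tissues. ELF3 at -0.83 was below the lowest of these 37 genes, many of which were dimmer than ELF3 and KLF4. Among genes of the brightness of ELF3 the standard deviation was 0.64. Of the genes compared, which are brighter and do not include ELF3, 13.9% were as low or lower. Their standard deviation was wider, at 0.75. The differences of KLF4, CDX1 and ATOH1 were inside the range of the 37 genes. Whether a dim factor is expressed at all in DLD-1 cannot be read from these values.

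**Figure D3:**
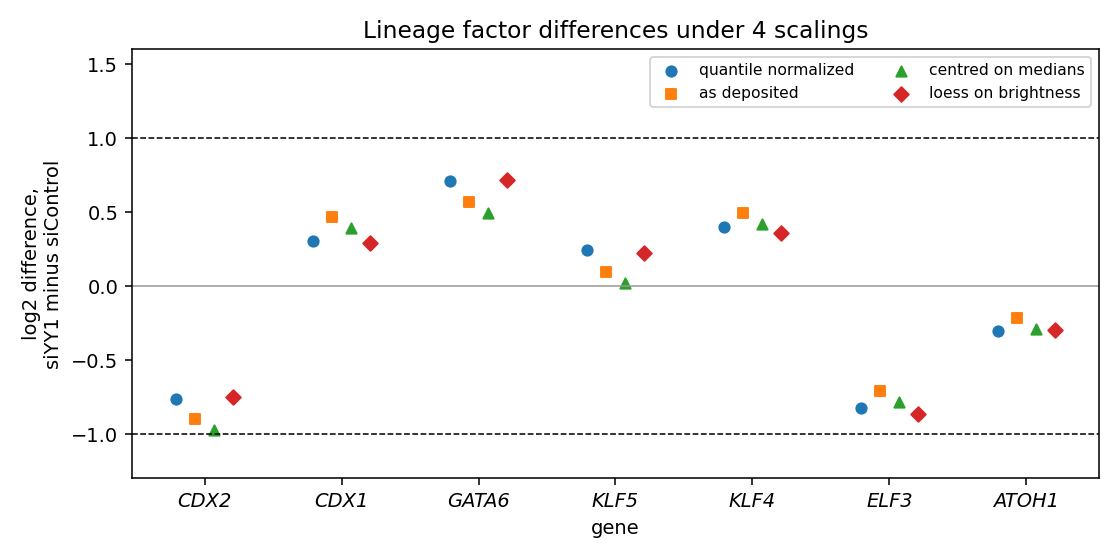
Log2 difference, siYY1 minus siControl (vertical axis), of the 7 lineage factors under 4 ways of scaling the 2 arrays, 1 symbol per scaling. All 7 keep their sign and stay between the dashed 2-fold lines; KLF5 comes closest to 0, at 0.02 after centring on medians.

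Close relatives of the factors were examined next, to see whether a whole family moved. Of 16 named KLF genes 9 were compared, and 1 passed 2-fold. Their median of 0.25 was the value of KLF5 itself; it was 0.11 without KLF5, 0.02 with the arrays centred on medians and -0.18 with a brightness minimum at the 75th percentile. KLF12, a repressor of the family, measured 7.57 in siControl against 8.91 in siYY1, a difference of 1.34. The other 8, KLF5 included, lay between -0.59 and 0.54. The 6 GATA genes were all above 0, under each of the 4 scalings. GATA6 was the only one of them compared, and the 5 dim ones differed by only 0.04 to 0.27. In the ParaHox and CDX family CDX2 alone was compared. The other 5, CDX1 included, were dim and ranged from -0.44 for PDX1 to 0.63 for GSX2.

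In the ETS family, to which ELF3 belongs, 14 of 27 genes were compared, with a median of 0.27, or 0.07 after centring on medians. Over all 27, dim ones such as ELF3 included, the median was -0.06 and 15 were below 0. The 2 compared genes past 2-fold were both higher. ETV5, a factor induced by ERK signalling, was at 8.65 and 9.94, a difference of 1.29, and ELF4 was at 9.65 and 10.84, a difference of 1.20. ELF4 was at 0.99 with the arrays centred on medians. ETV1, named after its values were seen, was just under the brightness minimum at 7.43 in siControl and at 5.95 in siYY1, and its difference of -1.48 was the largest in size of the 27. ETS2, the list's brightest probe set on siControl, differed by -0.46. EHF, a close epithelial relative of ELF3 named after its values were seen, measured 13.13 in siControl against 12.54 in siYY1, a difference of -0.60. Of all genes compared, 7.92% were higher by 2-fold or more and 9.37% lower, and the counts in this and the other lists stand beside these shares.

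Relatives and partners of HNF4A were listed too, but their levels do not give the level of HNF4A, which had no named probe set. Of these genes 8 were named and 6 compared, with a median of 0.48. It was 0.28 after centring on medians and 0.27 over all 8. HNF4G, the paralog of HNF4A in the intestine, measured 7.56 in siControl against 6.50 in siYY1, a difference of -1.06. The siYY1 value was below the brightness minimum, and RefSeq also lists a pseudogene, HNF4GP1, so the size is uncertain. CREBBP, a histone acetyltransferase that serves HNF4A and many other factors as coactivator, was at 11.05 and 13.06, a difference of 2.01. The orphan receptors NR2F1 and NR2F6, named after their values were seen, were at 0.80 and 0.48.

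Among 18 other named transcription factors of gut epithelium 8 were compared, with a median of 0.04 and 1 past 2-fold on each side. TCF7L2, the partner of beta-catenin in Wnt-responsive crypt cells, measured 8.70 in siControl against 10.36 in siYY1, a difference of 1.66. HNF4G, the gene already given in the HNF4 list, was the one on the lower side, and it reached the brightness minimum on the siControl array alone. With a brightness minimum at the 75th percentile, 0 genes of this list passed 2-fold. Values named after they were seen were SOX9, a crypt factor, at 0.58, the crypt stem factor ASCL2 at -0.61, above the brightness minimum on the siControl array alone, and FOXA1, a pioneer factor of endoderm, at 0.04. FOXA1 turned to -0.18 with the arrays centred on medians. The median of this list was -0.11 in the deposited values and -0.18 after centring on medians.

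ATOH1 acts in a circuit with Notch, where the receptor, through the DNA-binding protein RBPJ and the repressor HES1, holds ATOH1 down. Of 24 named Notch pathway genes 16 were compared, with 4 past 2-fold on the higher side and 1 on the lower. Their median of 0.45 was 0.23 after centring on medians, 0.22 over all 24 and -0.04 with a brightness minimum at the 75th percentile, so it has no settled sign. RBPJ measured 11.78 in siControl against 9.60 in siYY1, a difference of -2.18, or 4.52-fold lower. It stayed past 2-fold under all 4 scalings, and RefSeq lists several RBPJ pseudogenes that could share its signal. The ligands JAG1 and JAG2 were higher, by 1.38 and 1.07, as were RFNG, which modifies the receptor, by 1.07 and the coactivator MAML1 by 1.05. Only JAG1 of these 4 stayed past 2-fold under all 4 scalings: 2 did in the deposited values and 1 after centring on medians.

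HES1, named after its values were seen, was at 11.65 and 12.17, a difference of 0.53, so RBPJ and this target gene of it lay on opposite sides of 0. Of 9 named factors that act in secretory cells, GFI1 alone was compared, at 0.52. SPDEF, which acts after ATOH1 in goblet cells, was dim and at -0.69. ATOH1 itself stayed dim on both arrays.

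**Figure D4:**
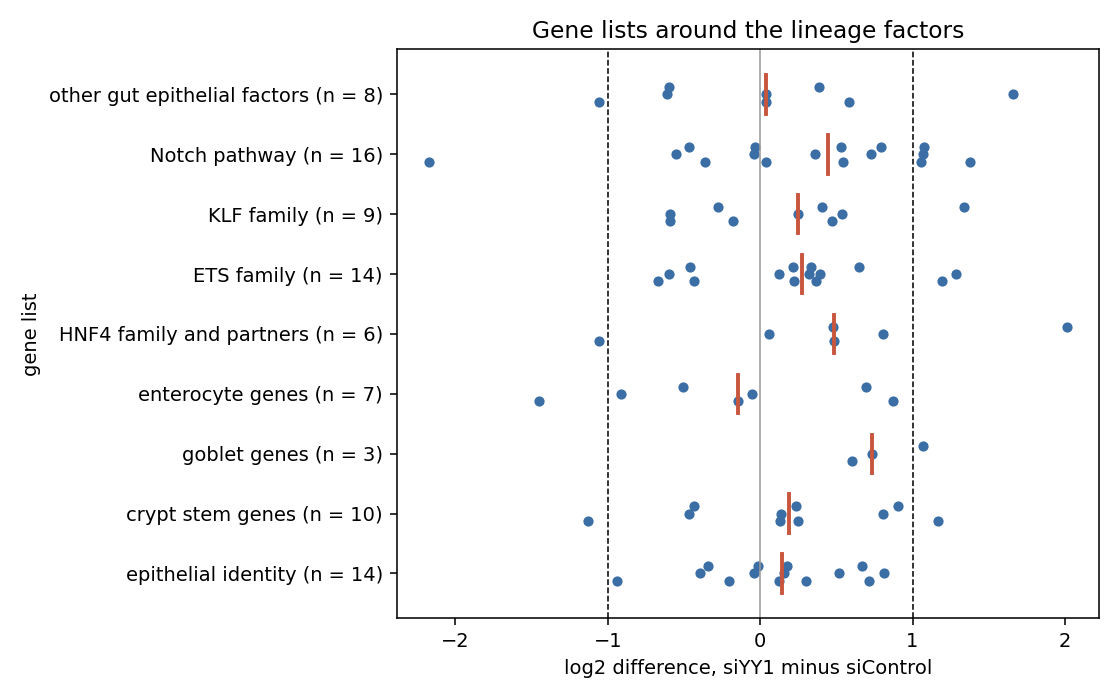
Log2 difference, siYY1 minus siControl (horizontal axis), of the compared genes of 9 lists around the lineage factors; each point is 1 gene and each vertical bar the median of a list, with dashed lines at 2-fold. RBPJ, at -2.18, is the lowest point of the Notch list and CREBBP, at 2.01, the highest point of the HNF4 list, and medians run from -0.14 for enterocyte genes to 0.73 for goblet genes.

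Marker genes of mature gut cells, listed by cell type and not as targets of the lineage factors, were mostly dim on both arrays. Only 7 of 40 named enterocyte genes were compared, with a median of -0.14. DPP4, a brush border peptidase, was the only one of these 7 past 2-fold, with 9.90 in siControl against 8.45 in siYY1, a difference of -1.45. Without further scaling TSPAN8, an epithelial tetraspanin at -0.91 after quantile normalization, passed 2-fold too, at -1.06. Over all 40 named, 2 were lower by 2-fold or more and 0 higher, beside 5.67% and 4.62% of all named protein-coding genes. The dim gene of these 2 was ALPI, at 4.94 and 3.74, a difference of -1.20, past 2-fold under all 4 scalings. CDH17, the intestinal cadherin that CDX2 is known to activate, was at 12.69 and 12.55, a difference of -0.14 beside -0.76 for CDX2. VIL1, which encodes the brush border protein villin, was at 7.54 and 7.03, so it reached the brightness minimum on the siControl array alone, and its difference was -0.51. The list did not lie on 1 side: CA2, a carbonic anhydrase, was at 0.87 and the apolipoprotein APOA4 at 0.69. CDH17, VIL1, TSPAN8, ALPI, CA2 and APOA4 were named after their values were seen.

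Goblet cell genes were dim except for 3 of 18, and these 3 were all above 0, with a median of 0.73. AGR2, a disulfide isomerase of the endoplasmic reticulum needed for mucin folding, measured 12.73 in siControl against 13.80 in siYY1, a difference of 1.07, and at 0.92 in the deposited values. SYTL2 was at 0.73 and TFF1, which is also made in the stomach, at 0.60. MUC2, the main secreted mucin of goblet cells, was dim at 4.38 and 4.52. Over all 18 goblet genes the median was 0.0041.

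Crypt stem cell genes, 10 of 14 compared, had a median of 0.19, which turned to -0.02 with the arrays centred on medians, and 1 past 2-fold on each side. ZNRF3, a ligase that removes Wnt receptors, was at 10.15 and 11.32, a difference of 1.17, and at 0.96 with the arrays centred on medians. CDCA7 was at 9.36 and 8.23, a difference of -1.13. LGR5, the receptor that marks these cells, was at 12.68 and 12.81 and changed sign with the scaling, from -0.09 to 0.13.

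The labelled cell type was checked on marker lists. Of 16 named epithelial identity genes 14 were compared, and none of these passed 2-fold. EPCAM was at 16.29 and 16.47 and KRT18 at 15.97 and 16.10. OVOL1 was just under the brightness minimum, at 7.47 in siControl and 6.30 in siYY1. Its difference of -1.17 was past 2-fold under all 4 scalings. No other gene of the 16 passed 2-fold after quantile normalization. CLDN4, at -0.94, passed 2-fold in the deposited values at -1.11. LGALS4, a marker of colon epithelium, was dim at 4.53 and 4.50, and so were FABP1 and SI. Most markers of other cell types were dim: at or above the brightness minimum were 1 of 9 fibroblast, 2 of 10 endothelial and 2 of 11 leukocyte genes. The genes that reached it outside the endothelial list were COL1A2 at 8.62 and 8.84, CD14 at 7.67 and 6.95 and CD79A at 7.56 and 7.98. Among the dim ones were PTPRC at 4.96 and 4.98, CDH5 at 3.72 and 3.86, DCN at 4.34 and 4.47 and COL1A1 at 4.60 and 5.70. The log2 ratio of the summed linear levels, siYY1 over siControl, was 0.22 for fibroblast, 0.59 for endothelial and 0.11 for leukocyte genes. In the endothelial list ENG, a TGF-beta coreceptor, was at 7.45 and 8.77, a difference of 1.33. ENG and ERG, the 2 endothelial genes counted, reached the minimum on the siYY1 array alone.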

How the data were processed

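The authors deposited 1 value per probe set and array for 21448 probe sets, taken here as log2 from their range of 2.51 to 17.9. No software, background correction or normalization is given in the sources used here. Biotin-labelled sense cDNA was hybridised, per the labels' protocols. The siYY1 array differed at the 25th, 50th and 75th percentiles by 0.18, 0.07 and -0.13, so the pair was quantile normalized. Names came from a platform table that gave 1 symbol for 17709 probe sets and none for 3739, and were updated through gene IDs to RefSeq, which matched 17683 of 17687 genes. Probe sets of a gene were averaged.

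Differences, siYY1 minus siControl, were read at 2-fold with no test. Members and lists were chosen with earlier results of these data known. Named were the 8 factors, list members past 2-fold among the genes compared (up to 6 a list, farthest first) and the brightest member of the KLF, GATA, ETS and HNF4 lists; all other genes were chosen after their values were seen. The CDX and GATA motifs were added after the values were seen. The code was tested on simulated data. Python 3.11.15, numpy 2.4.6, pandas 2.3.3, statsmodels 0.14.6 and matplotlib 3.10.9 were used.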

Additional observations from a re-analysis of the deposited data

How the results depend on the processing

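With the values as deposited, arrays centred on their medians or loess on brightness, the 7 factors kept their sign and stayed within 2-fold. The ranges were -0.97 to -0.75 for CDX2, 0.49 to 0.72 for GATA6, 0.02 to 0.25 for KLF5, -0.86 to -0.71 for ELF3, 0.36 to 0.49 for KLF4, 0.29 to 0.47 for CDX1 and -0.30 to -0.21 for ATOH1. Each factor has 1 probe set, so taking the brightest could not change it. At 1.5-fold, 2 of the 3 compared factors passed, CDX2 and GATA6, against 41.2% of genes; GATA6 did not as deposited (0.57) or centred on medians (0.49). The median over all genes compared moved from -0.01 to -0.13 in the deposited values and -0.20 after centring, and the share of 2-fold calls that were higher from 45.8% to 33.4% and 26.0%. No paired analysis was possible because each group was 1 array. Without replicates, a difference counted as moved when it shifted by more than 0.38, the median gap between probe sets of 1 gene over 20 genes. Dim values limit what can be said of 4 factors.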

Other observations

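Across all genes compared with a RefSeq window, 3453 held the YY1 core GCCAT or its reverse complement and had a median difference of -0.05. Of these, 237 (6.86%) passed 2-fold on the higher side and 359 (10.4%) on the lower. The 3933 without it had a median of 0.0035, with 323 (8.21%) higher and 357 (9.08%) lower. Over all genes compared the shares were 7.92% and 9.37%. The longer form AANATGGC was held by 1035 genes with a median of 0.01, 7.25% higher and 10.4% lower. The 6351 genes without the longer form had a median of -0.02, 7.64% higher and 9.57% lower. No lineage factor held the longer form. Whether these shares differ was not tested. Genes of gastric and squamous epithelium, the alternatives to intestinal identity, were dim except for TFF1. Of the 13 named, 8 were below 0 and the median was -0.20. MUC6, a gastric gland mucin, differed by 1.24 at 3.88 and 5.12, MUC5AC, the surface mucin of the stomach, was at 4.77 and 5.64, and SOX2, a foregut factor, at 6.77 and 6.45. On the lower side DSG3, a desmosomal cadherin of squamous cells, was at -0.66, KRT5, a basal keratin, at -0.64 and the trefoil peptide TFF2 at -0.47.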
